A study of Homo sapiens with 23 samples.

Results

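The 6 arrays measured 24 h after polyplexes were added to HEK293T cells are described here, of 23 arrays in the series. HEK293T is a line derived from human embryonic kidney and expresses the large T antigen of SV40. Polyplexes are particles of a cationic polymer, polyethylenimine (PEI), and plasmid DNA, here the plasmid pEGFP-LUC with green fluorescent protein (GFP) and luciferase reporters. The labels name 3 of the 24 h arrays transfected (GFP-positive, here T1, T2 and T3 by replicate number) and 3 untransfected (GFP-negative, U1, U2 and U3). Both populations were sorted by flow cytometry from cultures that had all received polyplexes, so that the GFP-negative cells had met them too. The same 2 populations were measured at 8 and 16 h with 3 arrays each, and at 2 h unsorted cells that had received polyplexes (treated, 3 arrays) were set beside cells that had not (untreated, 2 arrays). The design text names untreated controls for the study, and no label of a 24 h array does. The RNA of the 24 h arrays was extracted with Trizol alone, and that of all other arrays with Trizol and a column. All values are log2 units of a whole cell population, in which fewer cells of a type and less RNA per cell cannot be told apart.

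The labels of the 24 h arrays do not match the group means that the authors deposited for that time. Within a tolerance of 1e-06, all 54613 deposited means of each group equalled the mean of its labelled arrays at 2, 8 and 16 h, whereas 0 did at 24 h. No set of the 24 h arrays equalled a deposited 24 h column for more than 2 probe sets, so that count alone cannot judge the labels. On 1 probe set annotated to RAP1A the deposited means were 13.44 (GFP-positive) and 9.62 (GFP-negative). The means of the labelled arrays lay the other way, at 6.95 (transfected) and 12.44 (untransfected). The 24 h arrays were therefore grouped by 1 measured value, that of this RAP1A probe set, here called the grouping probe set. Of all probe sets it has the largest log2 fold change in the authors' deposited 24 h table, 3.82. Arrays at 12 log2 units or more were set apart from arrays under 12, and within the latter arrays under 6 were kept apart from those between 6 and 12. Since a measured value made these sets, they are described array by array, without averages, tests or treatment names. A probe set is called apart where all arrays of one set lie at least 1 log2 unit (2-fold) from all arrays of the other, and the gap is the distance between the nearest arrays.

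A reporter plasmid is transcribed only after it has reached the nucleus, and the sort for GFP separates cells by the reporter's product. Among the stress programmes of mammalian cells are the integrated stress response, in which the transcription factor ATF4 induces ATF3 and DDIT3, and the heat shock response, in which HSF1 induces chaperones. Immediate early genes such as EGR1 and FOS are induced within minutes by growth factors, serum or handling of cells, many of them through serum response factor (SRF), which binds the CArG box. Histone genes of the clustered families are transcribed mainly in S phase, and their promoters often hold CCAAT and TATA elements.

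To show the control regions of genes whose levels separated the arrays in different ways, the 250 bases before the start of 4 genes are given 5′ to 3′ on the gene's strand, from RefSeq on GRCh38.p14. EGR1 and ACTA1 share the CArG box and were on opposite sides at 24 h. H3C10 and H2AC17 are clustered histone genes that were lowest in the same 2 arrays. Capitals mark CArG boxes in the first pair, and CCAAT (or ATTGG, its other strand) and TATAAA in the second pair. EGR1 lies at chr5:138465229-138465478 on the + strand, ACTA1 at chr1:229434095-229434344 on the − strand, H3C10 at chr6:27809801-27810050 on the + strand and H2AC17 at chr6:27893186-27893435 on the − strand.
EGR1: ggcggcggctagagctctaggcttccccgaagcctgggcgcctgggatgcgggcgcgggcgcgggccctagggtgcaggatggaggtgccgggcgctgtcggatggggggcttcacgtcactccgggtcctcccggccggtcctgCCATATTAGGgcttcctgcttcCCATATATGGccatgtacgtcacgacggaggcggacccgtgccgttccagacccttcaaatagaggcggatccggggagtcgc
ACTA1: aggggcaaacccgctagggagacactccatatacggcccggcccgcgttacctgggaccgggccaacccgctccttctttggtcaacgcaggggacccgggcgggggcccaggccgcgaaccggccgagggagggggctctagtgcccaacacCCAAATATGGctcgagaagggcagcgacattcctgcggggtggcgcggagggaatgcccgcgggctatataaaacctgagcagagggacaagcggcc
H3C10: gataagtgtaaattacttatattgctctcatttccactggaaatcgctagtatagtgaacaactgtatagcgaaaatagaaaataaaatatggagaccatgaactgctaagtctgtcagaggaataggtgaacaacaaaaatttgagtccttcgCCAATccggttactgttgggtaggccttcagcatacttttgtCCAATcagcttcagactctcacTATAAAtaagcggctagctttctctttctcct
H2AC17: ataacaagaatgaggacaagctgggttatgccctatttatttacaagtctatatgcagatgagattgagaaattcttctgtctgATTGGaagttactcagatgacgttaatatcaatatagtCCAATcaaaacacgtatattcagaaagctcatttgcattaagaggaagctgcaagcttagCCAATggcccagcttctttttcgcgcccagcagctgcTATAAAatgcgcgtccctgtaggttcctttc
The EGR1 window held 2 CArG boxes and the ACTA1 window 1, and 1.16% of all 35116 RefSeq promoter windows of this length held at least 1. The H3C10 window held 2 CCAAT elements and the H2AC17 window 3, against 32.0% of all windows with at least 1. Both histone windows held 1 TATAAA, as did 10.7% of all windows. The matches on both strands describe letters and show no binding.

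The grouping probe set read 13.37 in T3, 13.61 in U1 and 13.51 in U2, which form the high set of 3 arrays. It read 10.21 in U3, the array between 6 and 12, and 3.68 in T1 and 3.81 in T2, the 2 arrays under 6. The lowest high array was thus 1.37 log2 units above the limit of 12 and U3 was 1.79 below it. In rank, the probe set was among the brightest 192 of 54613 in each high array and at place 2514 in U3. It lay under the array median in T1 and T2, with 28.4% and 29.8% of probe sets below it.

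A second probe set annotated to RAP1A followed the first, at 13.77, 14.01 and 13.86 in T3, U1 and U2, 10.88 in U3, and 3.27 and 3.43 in T1 and T2. The other probe sets of RAP1A, a small GTPase of cell adhesion, did not. One of them lay between 10.52 and 10.82 in all 6 arrays, with overlapping sets. The other read 6.75, 6.90 and 7.07 in the high arrays, 7.28 in U3, and 7.64 and 7.37 in T1 and T2. The signal that separates the arrays therefore does not extend to every RAP1A probe set, and the sequences of the probes were not used here.

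**Figure D1:**
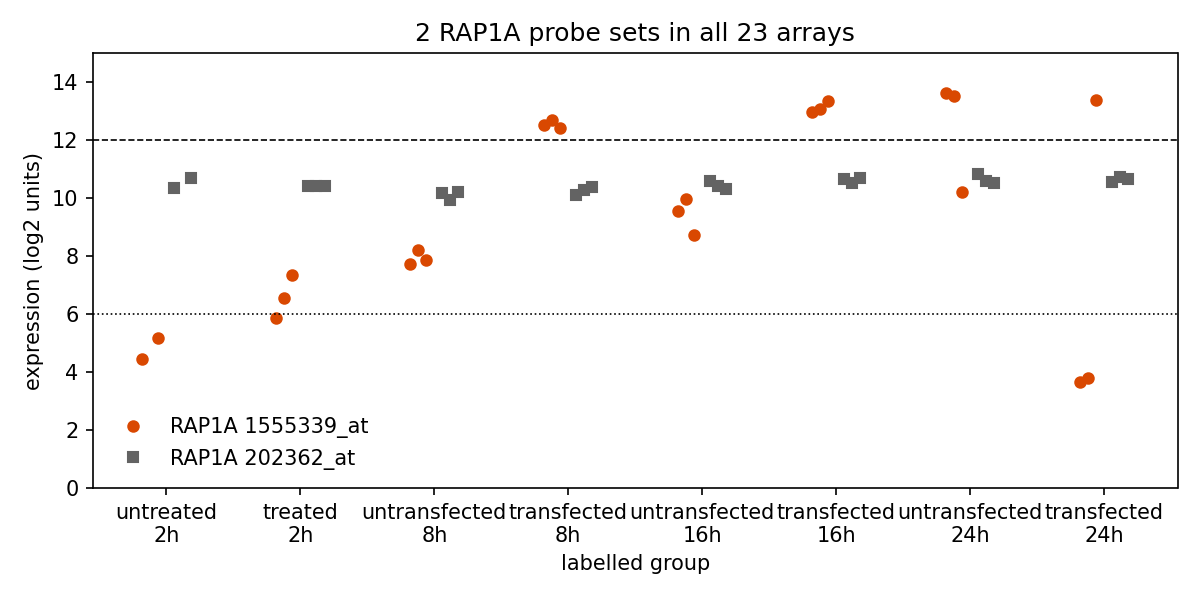
Expression in log2 units of the grouping probe set (circles) and of another RAP1A probe set (squares) in each of the 23 arrays by labelled group; each point is 1 array, and the lines mark the limits of 12 (dashed) and 6 (dotted). At 8 and 16 h all transfected arrays lie above 12 on the grouping probe set and all untransfected arrays between 7.72 and 9.96, whereas both 24 h groups are split and the other probe set stays between 9.93 and 10.82.

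The labelled groups at the other times show how this probe set moved with GFP. At 2 h it read 4.46 and 5.17 in untreated arrays, and 5.88, 6.57 and 7.36 in treated arrays. At 8 h it read 7.72, 8.20 and 7.87 in untransfected arrays and 12.53, 12.68 and 12.41 in transfected arrays. At 16 h the untransfected arrays read 9.55, 9.96 and 8.73, and the transfected arrays 12.98, 13.06 and 13.36. Transfected arrays were thus above all untransfected arrays at both times. Transfected replicate 3 of 8 h has a source name that says 16 h. It was kept at 8 h after its title and description, and the deposited 8 h mean equals the mean of the 3 arrays with it included. It rose at 8 h by 4.61 log2 units (SE 0.31, adjusted p = 6.03e-07) and at 16 h by 3.72 (SE 0.31, adjusted p = 8.06e-06). Without transfected replicate 3 the 8 h value was 4.68 (adjusted p = 9.43e-06). These p-values come from limma over the 17 arrays of 2, 8 and 16 h, with Benjamini-Hochberg adjustment over all probe sets at a threshold of 0.05. The 2 h difference of 1.79 log2 units passed in that fit (adjusted p = 0.0287), but not with the 2 h arrays alone (adjusted p = 0.447). The levels of T1 and T2 lay under all 5 of the 2 h arrays, and that of U3 above all 6 untransfected arrays of 8 and 16 h. Each time was normalized apart, so levels of different times are set side by side only.

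As labelled, the 24 h groups showed no called difference. With limma, 0 of 54613 probe sets passed between transfected and untransfected arrays, and 1516 had an unadjusted p under 0.05. The labelled means of the grouping probe set were 6.95 ± 5.56 (SD, n = 3) in transfected and 12.44 ± 1.93 (SD, n = 3) in untransfected arrays, a log2 fold change of -5.49 (adjusted p = 0.978, limma). No probe set was apart by 1 log2 unit between the labelled groups in either direction. The 5 smallest p-values belonged to probe sets of SYT12, LOC728190, KIF13A, BBX and ATAD2B. SYT12, a synaptotagmin, read 4.29, 4.51 and 4.34 in T1 to T3, and 3.66, 3.65 and 3.83 in U1 to U3. The labels call arrays biological replicates and give no culture or day for any array, so that p-values cover only the spread from array to array.

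Between the high arrays and the arrays under 12, 139 probe sets were apart with the high arrays above (0.255% of all) and 15 with the high arrays below (0.0275%). The 139 include the grouping probe set, whose separation the rule fixed, and 138 remain without it. At a gap of 0.5 log2 units the counts were 682 and 267, and at a gap of 2 they were 18 and 0. Without any minimum gap the sets did not overlap for 6066 probe sets above (11.1%) and 7361 below (13.5%). Larger gaps were thus more frequent above than below. The 139 probe sets above include 102 with a gene symbol, of 92 genes, and the 15 below include 13, of 12 genes. Many were dim where they were low. For 62 of the 139, the highest of the 3 arrays under 12 lay under the median of the arrays. Just inside the limit above was ATOSA at a gap of 1.002 and just outside was SNHG15 at 0.991. Below, EGR1 was just inside at 1.05 and MYC just outside at 0.997.

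U3, intermediate on the probe set that made the sets, was not intermediate on most other probe sets that were apart. On a scale from the nearer of T1 and T2 to the nearest high array, U3 stood at 67.0% on the grouping probe set. Its median position over the 139 probe sets above was 1.79% (quartiles -8.01% and 13.2%), and 2 of the 139 reached 50%. For the 15 below, the median was 8.41%. U3 thus lay nearer to T1 and T2 on nearly all of these probe sets, which was partly fixed beforehand. A probe set was called apart only where U3, too, lay at least 1 log2 unit from the high arrays. These positions therefore do not describe U3 on other probe sets. Leaving U3 out gave 245 probe sets above and 41 below, and keeping U3 alone in place of the 3 arrays under 12 gave 217 and 39.

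The largest gaps above, after RAP1A, include muscle genes. NEB, the giant thin-filament protein nebulin, read 6.39, 6.92 and 6.27 in T3, U1 and U2, 3.80 in U3, and 3.32 and 3.67 in T1 and T2. ACTA1, skeletal muscle actin, read 6.63, 6.57 and 6.43 in the high arrays, 4.42 in U3, and 4.21 and 3.83 in T1 and T2. MYH3, the embryonic myosin heavy chain, read 6.71, 6.74 and 6.69 in the high arrays, 4.70 in U3, and 4.29 and 4.34 in T1 and T2. For these 3 genes the gap between the high arrays and the others was 2.00 to 2.47 log2 units, and U3 stood 0.13 to 0.35 above the higher of T1 and T2.

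The same genes had been measured at the earlier times. ACTA1 read 4.79, 4.48 and 4.68 in the untransfected arrays of 8 h, and 7.37, 7.06 and 6.88 in the transfected arrays. At 16 h it read 4.91, 4.91 and 4.94 in untransfected, and 7.18, 7.10 and 7.84 in transfected arrays. No array of one group overlapped the other at either time. ACTA1 rose by 2.45 log2 units at 8 h (SE 0.16, adjusted p = 3.02e-07, limma) and by 2.45 at 16 h (SE 0.16, adjusted p = 3.97e-07, limma). NEB rose by 2.54 and 2.87 log2 units, and MYH3 by 1.68 and 1.64, at 8 and 16 h.

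Other genes with the largest gaps above are usually expressed in particular tissues or cell types. DNAI4, a dynein intermediate chain of motile cilia, read 6.14, 6.58 and 5.90 in the high arrays and 2.95 to 3.44 in the other arrays. GCNA, a germ cell nuclear protein, read 7.81, 7.77 and 7.68 in the high arrays and 4.81 to 5.28 in the others. SCG5, a neuroendocrine secretory protein, read 6.41, 6.63 and 6.57, against 3.72 to 4.33. TEX14, a protein of germ cell bridges, read 6.81, 6.59 and 6.73, against 4.17 to 4.71, and CLEC4A, a C-type lectin of myeloid cells, 5.81, 5.87 and 5.94, against 3.45 to 3.74. All of them rose in transfected arrays at 8 and 16 h, with log2 fold changes from 1.46 (TEX14, adjusted p = 0.000588) to 2.81 (DNAI4, adjusted p = 1.97e-06) at 8 h, by limma. TPH1, CFAP43, LRRC23, LSMEM1 and DCAF4L1 were also apart at 24 h, with gaps of 1.10 to 1.81. Over a list of 13 such tissue-restricted genes, which was drawn up from earlier results of these data, 12 had high arrays above all others (12.3% of 20009 genes, each by its brightest probe set). INSM1 was the 1 gene with high arrays below (17.1% of genes), at 5.81 to 5.85 against 6.09 to 6.67. Of the 12, 10 were apart by at least 1 log2 unit (0.25% of genes above, 0.035% below). Since the list was chosen on these data, its calls at earlier times are a description and nothing is read from them. At 8 h 12 of the 13 were called higher (3.14% of genes) and INSM1 lower (6.3%), and at 16 h 12 were called higher (3.01%).

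The gap with the highest value after RAP1A belonged to 1 of 2 probe sets of CHORDC1, a co-chaperone of HSP90. It read 7.32, 7.22 and 7.36 in T3, U1 and U2, 3.99 in U3, and 4.20 and 3.30 in T1 and T2. The brighter CHORDC1 probe set read 10.23 to 10.80 with overlapping sets. PGAP1, a GPI inositol deacylase, and IREB2, an iron regulatory protein, were alike in this. One PGAP1 probe set was apart by 2.68 and one of IREB2 by 2.55, while the largest gap among their other probe sets was 0.013 and 0.76. Of the 102 named probe sets above, 78 had other probe sets of their gene on the array. For 20 of these 78 another probe set was apart, for 59 another had sets without overlap, and for 59 another was brighter in the arrays under 12. A gap is thus a value of 1 probe set, and often not of all probe sets of its gene.

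**Figure D2:**
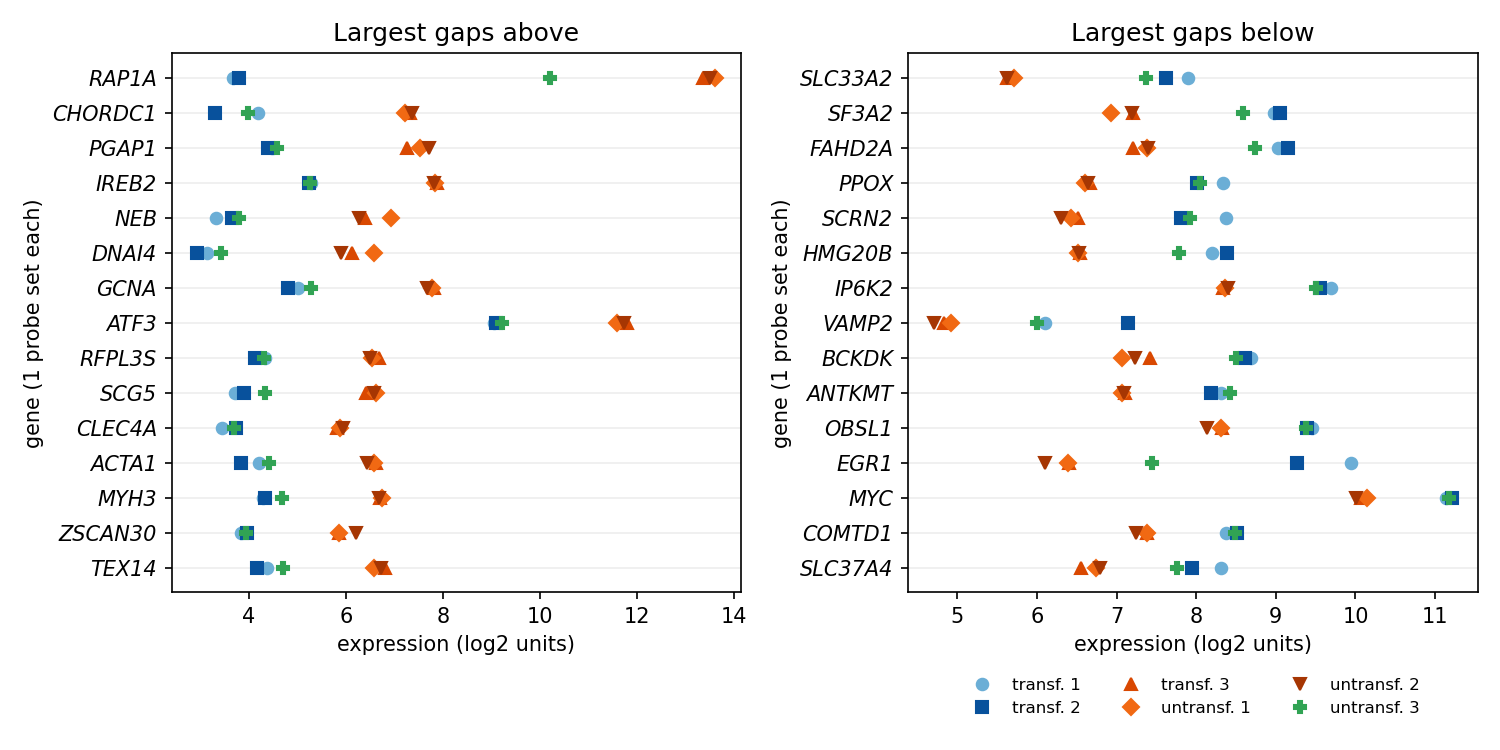
Expression in log2 units of the 15 genes with the largest gap above (left) and below (right), 1 probe set each; each point is 1 of the 6 arrays at 24 h, named by its label. T3, U1 and U2 sit together on every gene, and U3 sits nearer to T1 and T2 except on RAP1A and EGR1.

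A share of the stress genes was higher in the same 3 arrays, and others overlapped. ATF3, a stress-induced repressor downstream of ATF4, read 11.79, 11.58 and 11.74 in T3, U1 and U2, 9.21 in U3, and 9.05 and 9.11 in T1 and T2. DDIT3, the transcription factor CHOP, read 8.82 to 9.07 in the high arrays, 7.33 in U3, and 6.97 and 6.87 in T1 and T2. GDF15, a secreted stress cytokine, read 7.03, 6.79 and 6.74, against 5.52 in U3 and 5.13 and 5.05 in T1 and T2. The high arrays did not overlap the others for any of these 3 genes on the probe sets given. On neither of the 2 other GDF15 probe sets did the high arrays lie above all others, and on both other ATF3 probe sets they did. Of 24 measured genes of the ATF4 response, 11 had high arrays above (12.3% of all genes) and 1 (SHMT2) below (17.1%). The others above include CTH and SLC3A2, with gaps of 0.59 and 0.88. ATF4 itself, which is mainly controlled in translation, lay between 12.96 and 13.06 in all arrays. The amino acid enzymes ASNS, PSAT1 and PHGDH, known ATF4 targets, had overlapping sets.

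At 8 h ATF3 read 8.43, 8.73 and 8.63 in untransfected and 9.75, 10.51 and 9.91 in transfected arrays. At 16 h it read 9.41, 9.30 and 9.40 in untransfected, and 10.58, 11.10 and 11.95 in transfected arrays. It rose by 1.46 log2 units at 8 h (SE 0.24, adjusted p = 0.00185, limma) and 1.84 at 16 h (SE 0.24, adjusted p = 0.000422, limma). DDIT3 rose by 1.12 and 1.06. GDF15 had log2 fold changes of -0.09 at 8 h (adjusted p = 0.826, limma) and 0.60 at 16 h (adjusted p = 0.0536, limma), so its separation at 24 h has no called counterpart earlier. Of the 24 genes, 5 rose at 8 h (3.14% of all genes) and 7 at 16 h (3.01%), and 0 fell.

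Chaperones of the heat shock list were separated in part. HSPA6, a strictly inducible HSP70, read 6.19, 5.67 and 5.96 in the high arrays, 4.14 in U3, and 3.82 and 4.35 in T1 and T2. DNAJB1, an HSP40, read 10.19, 10.33 and 10.13 on 1 of its probe sets in the high arrays, 9.06 in U3, and 8.97 and 8.91 in T1 and T2. DNAJB6 and BAG3, partners of HSP70, had gaps of 0.82 and 0.63. Of 26 measured genes, 13 had high arrays above (12.3% of all genes) and 1 (HSF1) below (17.1%). The abundant constitutive members HSPD1, HSPE1, HSPA8 and HSP90AB1 had overlapping sets. At 8 h 5 of the 26 rose (3.14% of all genes) and at 16 h 7 did (3.01%), and 0 fell. HSPA6 was at 0.58 at 8 h (adjusted p = 0.193, limma) and rose by 1.14 at 16 h (adjusted p = 0.016, limma). In the list of 22 genes of the endoplasmic reticulum stress response, 6 had high arrays above and 4 below, against 12.3% and 17.1% of all genes, and 0 were apart. The count below is near the share of all genes.

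Targets of p53, the tumour suppressor that large T antigen binds, stood on the high side at 24 h with few calls earlier. PLK2, a polo-like kinase, read 7.63, 7.38 and 7.64 in the high arrays, 5.86 in U3, and 5.61 and 5.31 in T1 and T2. GADD45A, a growth arrest gene, read 11.09, 11.04 and 10.99, against 9.97 in U3 and 9.91 and 9.69 in T1 and T2. MDM2, the ubiquitin ligase of p53, read 6.91, 7.53 and 7.38 on 1 of its probe sets, against 5.34 in U3 and 5.39 and 5.31 in T1 and T2. CDKN1A, the cell cycle inhibitor p21, read 9.30, 8.74 and 9.10, against 8.66, 8.58 and 8.15, a gap of 0.08 only. Of 18 measured targets, 13 had high arrays above (12.3% of all genes) and 0 below (17.1%). At 8 h 0 of the 18 were called by limma (1 with the replicate block), and at 16 h PLK2, GADD45A and XPC rose, by 0.97, 0.74 and 0.33. Whether the 24 h pattern differs from that of the earlier times was not tested, since the sets at 24 h come from a measured value.

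Among the 15 probe sets below, the largest gaps belonged to SLC33A2, SF3A2, FAHD2A, PPOX, SCRN2 and HMG20B. SLC33A2 read 5.63, 5.71 and 5.62 in the high arrays, 7.37 in U3, and 7.90 and 7.63 in T1 and T2. SF3A2, a subunit of the splicing factor SF3a, read 7.21, 6.93 and 7.19, against 8.59 in U3 and 8.98 and 9.05 in T1 and T2. PPOX, an enzyme of haem synthesis, read 6.67, 6.60 and 6.64, against 8.05 in U3 and 8.34 and 8.01 in T1 and T2. The arrays under 12 thus lay 1.33 to 1.66 log2 units above the high arrays for these 3 genes. BCKDK, a kinase of branched-chain amino acid breakdown, IP6K2, an inositol kinase, VAMP2, a vesicle SNARE, ANTKMT and OBSL1 followed with gaps of 1.06 to 1.11. Of the 13 named probe sets below, 11 had other probe sets of their gene. For 2 of these 11 another was apart, and for 7 another had the high arrays below without overlap. On the other probe sets of SLC33A2, PPOX, SCRN2 and IP6K2 the high arrays did not lie below all others. At 8 h SLC33A2 and SF3A2 fell in transfected arrays by 0.75 and 1.14 log2 units, with adjusted p = 0.00528 and 0.00735 (limma). PPOX was at -0.43 at 8 h (adjusted p = 0.135, and 0.0231 with the replicate block) and fell by 0.75 at 16 h (adjusted p = 0.0161), by limma.

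Genes of cholesterol synthesis and of G2 and M phase were on the low side more often than on the high side, by small amounts, as were all genes (17.1% below and 12.3% above). MYC, the growth regulator, read 10.06, 10.15 and 10.01 in the high arrays, 11.17 in U3, and 11.14 and 11.21 in T1 and T2, and fell at 8 h by 0.79 and at 16 h by 0.63 log2 units (adjusted p = 0.00415 and 0.0205, limma). Of 25 measured genes of cholesterol synthesis and uptake, 12 had high arrays below and 1 (HSD17B7) above. Among the 12, INSIG1 read 10.74, 10.65 and 10.59, against 11.55 in U3 and 10.96 and 11.04 in T1 and T2. Of 28 genes of G2 and M phase, 8 had high arrays below and 1 (MKI67) above, each of the 8 with a gap of at most 0.42. At 8 h 10 of the 28 fell (6.3% of genes) and at 16 h 8 did (2.1%). Of 24 genes of G1 and S phase, 9 had high arrays above and 5 below. These 9 and 5 stand beside the same shares of all genes, 12.3% and 17.1%. Of 34 interferon-stimulated genes, 3 had high arrays above and 5 below, near the shares of all genes. Of 25 NF-kB and inflammatory genes, 1 had high arrays above and 2 below. None of these lists held a gene that was apart by 1 log2 unit at 24 h.

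The sets of the 24 h arrays were also set beside the calls of earlier times, which come from other arrays. Of the 139 probe sets above, 110 were called higher at 8 h (79.1%, against 2.75% of all probe sets) and 128 at 16 h (92.1%, against 2.47%), and 0 were called lower. Without the grouping probe set, 109 and 127 of 138 were called. Of the 15 below, 9 were called lower at 8 h (60.0%, against 4.15%) and 12 at 16 h (80.0%, against 1.96%), and 0 higher. At 2 h, 9 of the 139 were called higher (0.214% of all) and 0 of the 15 lower (0.335%). The median log2 fold change of the 139 was 0.99 at 8 h and 1.23 at 16 h, against 0.004 and -0.04 for all probe sets. That of the 15 was -0.60 and -0.65. With all 23 arrays in 1 fit, in which the labelled 24 h groups enter the shared spread, 28 and 2 of the 139 were called higher at 8 and 16 h, and 0 of the 15 were called lower at either time. Without transfected replicate 3 of 8 h, whose source name says 16 h, 99 of the 139 and 7 of the 15 were called at 8 h. Of the 15, 5 were called lower at 8 h without transfected replicate 2 of that time. At 16 h 7 of them were called without transfected replicate 2 and 6 without untransfected replicate 3.

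Read the other way, 721 probe sets were called higher at both 8 and 16 h. For 659 of these (91.4%) the arrays T3, U1 and U2 lay above the others without overlap, against 11.1% of all probe sets, and for 0 they lay below. Of 511 probe sets called lower at both times, the 3 arrays lay below for 384 (75.1%, against 13.5%), and above for 0. All 97 probe sets that were at least 2-fold higher at both times had the 3 arrays above. Array by array, T3, U1 and U2 were among the top 3 of the 6 for 96.1%, 96.9% and 97.9% of the 721 probe sets. T1, T2 and U3 were among them for 4.58%, 2.50% and 1.94%. Each array's place on these probe sets thus followed the side of 12 on which it stood on the grouping probe set, and not its label. Below 12 it did not follow the level, as U3 was among the top 3 least often. The grouping probe set is 1 of the 721 and of the 659, and 658 of 720 remain without it.

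**Figure D3:**
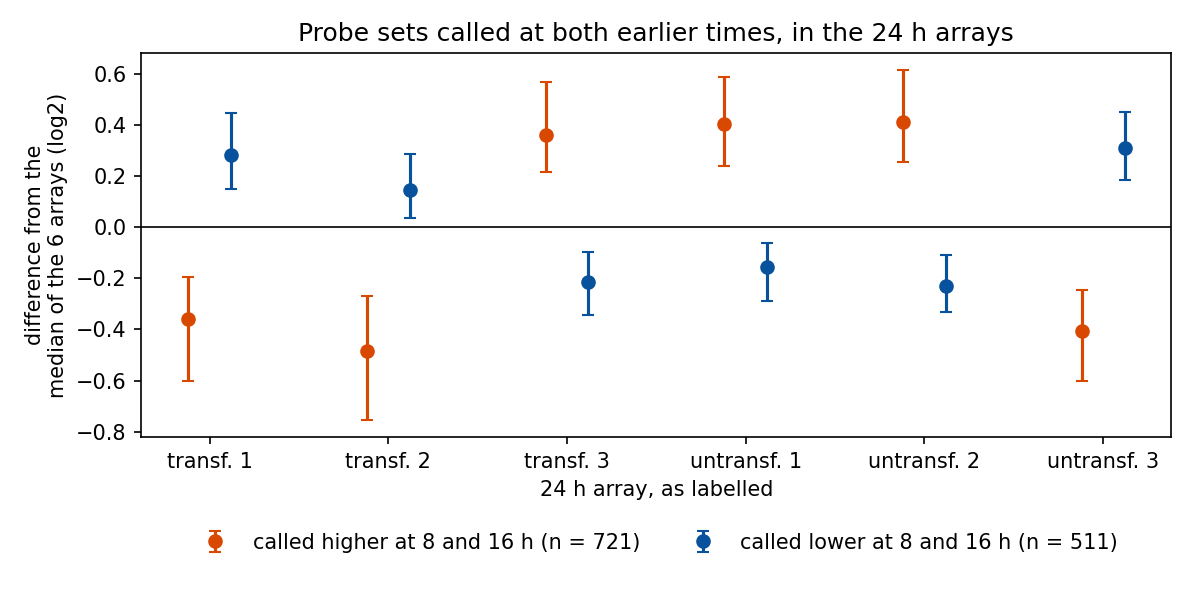
Difference of each 24 h array from the median of the 6 arrays, in log2 units, over probe sets called higher (n = 721) or lower (n = 511) at both 8 and 16 h; points are medians over probe sets and bars run from the first to the third quartile. T3, U1 and U2 lie above 0 on the first set (medians 0.36 to 0.41) and below 0 on the second, and T1, T2 and U3 the other way.

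Within the 3 arrays under 12, T1 and T2 differed from U3 in a second way that the high arrays shared with U3. Against the other 4 arrays together, T1 and T2 were lower by at least 1 log2 unit for 15 probe sets (0.0275% of all) and higher for 3 (0.00549%), all 3 of EGR1. At a gap of 0.5 the counts were 204 (0.374%) and 43 (0.0787%). The genes named for this pattern were chosen after their values were seen.

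Histone genes led the lower group. H2AC17, a clustered H2A gene whose promoter is shown above, read 4.99 and 4.56 in T1 and T2, 7.14 in U3, and 7.77, 7.73 and 7.20 in T3, U1 and U2. H3C10, a clustered H3 gene, read 4.84 and 4.56 in T1 and T2, 6.47 in U3, and 7.36, 7.38 and 7.33 in the high arrays. H2BC5, a clustered H2B gene, read 6.67 and 6.65 in T1 and T2, 7.94 in U3, and 9.93, 9.66 and 9.85 in the high arrays. For H2BC5 and H3C10 there were thus 3 levels, with U3 between the others, and for H2AC17 U3 stood within 0.06 of the lowest high array. Of 14 measured histone genes, 11 were lower in T1 and T2 than in all 4 other arrays (11.7% of all genes) and 0 higher (11.8%). The 3 that were not were HIST1H2BG, H2AZ1 and H3-3B. H2AZ1 and H3-3B are replication-independent variants.

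Some histone genes had moved with GFP at earlier times as well. H2AC17 rose by 1.11 log2 units at 8 h and 0.91 at 16 h (adjusted p = 0.0024 and 0.0116, limma). H3C10 rose by 1.32 and 1.17, and H2BC5 by 1.31 and 1.33. Of the 14 list members, 4 rose at 8 h (H2BC5, H2BC9, H2BC12 and H2BC21; 3.14% of all genes) and 4 at 16 h (3.01%), and 0 fell. With the replicate block H2AC6 passed at 8 h too, at 0.46 log2 units (adjusted p = 0.0432, limma). Clustered histone messages largely lack poly(A) tails.

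EGR1, an immediate early transcription factor, went the other way. Its brightest probe set read 11.18 and 10.83 in T1 and T2, 8.74 in U3, and 8.08, 7.91 and 7.46 in the high arrays. A second probe set read 9.95 and 9.26 in T1 and T2, 7.45 in U3, and 6.40, 6.39 and 6.10 in the high arrays. T1 and T2 thus lay above U3, by a gap of 2.09 and 1.82 log2 units on these probe sets, and U3 lay above the high arrays. FOSB, an AP-1 subunit, read 8.16 and 7.53 in T1 and T2, 7.11 in U3, and 6.51, 6.29 and 6.29 in the high arrays, and EGR3 read 5.03 and 4.16, 3.84, and 3.54, 3.57 and 3.61. Other members of the list did not follow. JUN read 11.58 in both T1 and T2 and 11.93 to 12.02 in the other 4 arrays, and CCN2 read 4.84 and 4.22 against 5.19 to 5.38. Of 31 measured immediate early genes, 4 were higher in T1 and T2 than in the other 4 arrays (11.8% of all genes, a like share) and 10 lower (11.7%).

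EGR1 also varied within a labelled group at 2 h. The brightest EGR1 probe set read 10.16 in untreated replicate 1 and 6.62 in untreated replicate 2, against 6.62, 6.40 and 6.31 in the treated arrays. The difference of -1.95 log2 units between treated and untreated arrays did not pass and rests on untreated replicate 1. Without that array it was -0.18 (adjusted p = 1, limma). Without untreated replicate 2 it was -3.72 (adjusted p = 1.58e-06, limma), but then untreated replicate 1 stands alone and is assumed to vary like the other groups. At 8 h it read 7.69 to 7.89 in untransfected and 6.86 to 7.09 in transfected arrays, a log2 fold change of -0.80 (adjusted p = 0.426, limma), which passed with the 8 h arrays alone. At 16 h the log2 fold change was -0.65 (adjusted p = 0.577, limma). ACTA1, which shares the CArG box with EGR1, was high at 24 h in T3, U1 and U2, where EGR1 was lowest. In U3 the 2 genes were not opposite, as ACTA1 was low there and EGR1 stood nearer to the high arrays than to T1 and T2.

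**Figure D4:**
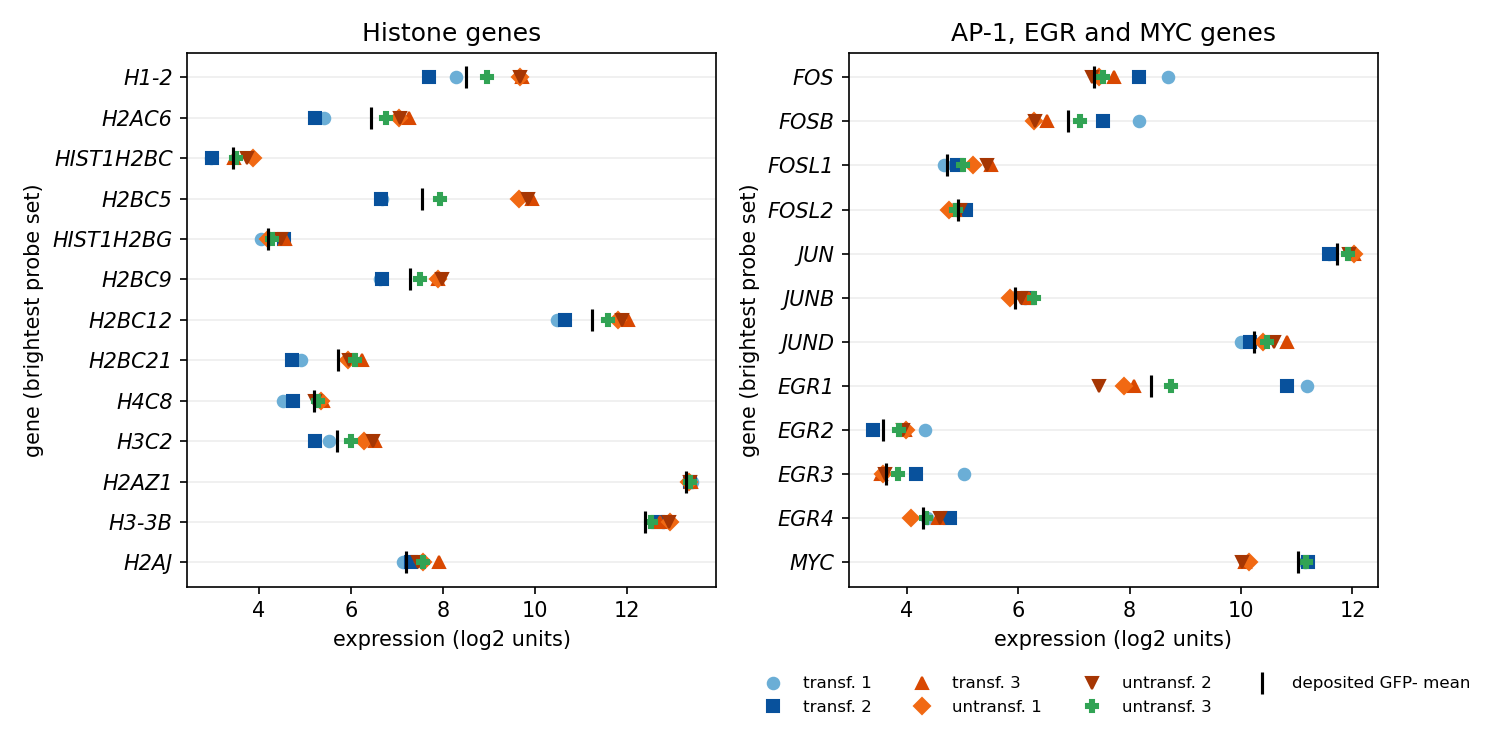
Expression in log2 units of measured histone genes (left) and of AP-1, EGR and MYC genes (right) in the 6 arrays at 24 h, by each gene's brightest probe set; points are arrays by label and the bar is the GFP-negative mean of the authors' deposited table. T1 and T2 lie to the left on most histone genes and to the right on EGR1, FOS and FOSB, with the deposited mean nearer to U3 on H2AC6, H2BC12 and EGR1.

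The authors' deposited 24 h table gives a mean for GFP-positive and one for GFP-negative cells. On the grouping probe set, the authors' deposited table has 13.44 for GFP-positive and 9.62 for GFP-negative cells. The first lies within the range of T3, U1 and U2, and the second lies under U3 and above T1 and T2. In the authors' deposited table, a total of 291 probe sets were at least 2-fold higher in GFP-positive cells (0.533%), and 135 of them were among the 139 above. That is 46.4% of the 291 and 97.1% of the 139. Without the grouping probe set, which had the largest change of the authors' deposited table, they are 134 of 290. A further 44 probe sets of the authors' deposited table were at least 2-fold lower (0.0806%), and 14 of them were among the 15 below (31.8% and 93.3%). All 139 and all 15 had the same sign in the authors' deposited table, with a posterior probability of at least 0.95. Of all 54613 probe sets in the authors' deposited table, 1390 were higher and 740 lower at that posterior probability. The log2 fold change of the authors' deposited table had a median of 1.53 over the 139 and -1.28 over the 15. For ATF3 it was 2.42, for ACTA1 2.25, for SLC33A2 -1.85 and for MYC -1.10. The table and the arrays may hold the same RNA, so this is a description and no independent support.

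The GFP-positive column was nearest to the mean of the 3 high arrays. The median absolute difference over all probe sets between that column and each of 63 sets of 1 to 6 arrays was computed after joint quantile normalization, since the medians of the deposited columns (4.78 for both) lay under those of the arrays (4.93 to 4.97). For the mean of T3, U1 and U2 it was 0.0387 log2 units, the smallest of the 63. Without that normalization it was 0.154, the fourth smallest. The GFP-negative column had no such match. Its smallest value over the 63 sets was 0.0843, for the mean of T1, T2, U2 and U3. Its nearest single array was U3 at 0.0988, and it was 0.115 from the mean of T1 and T2. U3 and the mean of T1 and T2 ranked 27 and 48 of the 63, and 55 and 58 without that normalization. No set equalled either column for more than 2 probe sets.

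On the genes that separate T1 and T2 from the other arrays, the place of the GFP-negative column of the authors' deposited table varied. It stood between U3 and the pair T1 and T2, near U3, or past U3 toward the high arrays. For H2AC17 the authors' deposited table gives 6.84 and for the second EGR1 probe set 6.90. U3 read 7.14 and 7.45, T1 4.99 and 9.95, and T2 4.56 and 9.26. The deposited EGR1 value thus lay past U3, on the side of the high arrays. Over the 204 probe sets that were lower in T1 and T2, the deposited GFP-negative mean lay beyond both toward the other 4 arrays for 202. Over the 43 that were higher it did so for 43. In the authors' deposited table its median place over the 204 was 57.0% of the way from the nearer of T1 and T2 to U3, and 78.8% after joint quantile normalization. Over the 43 the median place was 106% and 80.9%. The deposited GFP-positive mean lay beyond T1 and T2 for all 204 and all 43. The counts of 202 and 43 therefore do not single out the GFP-negative mean.

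**Figure D5:**
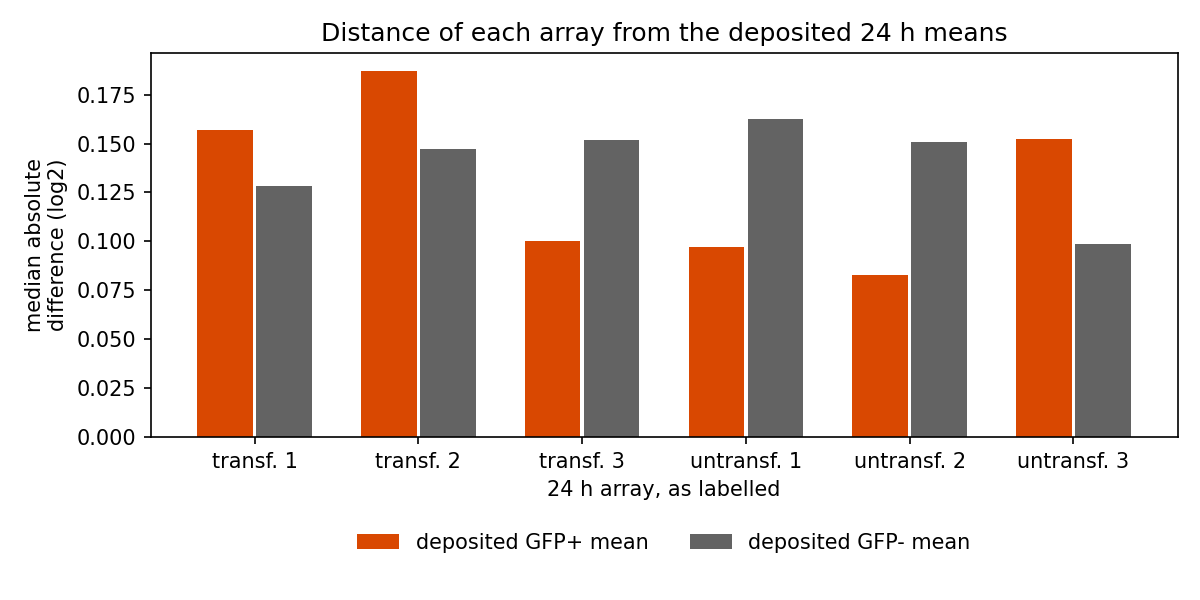
Median absolute difference in log2 units, over 54613 probe sets after joint quantile normalization, between each 24 h array and the GFP-positive and GFP-negative means of the authors' deposited table. The GFP-positive mean is nearest to U2, U1 and T3, and the GFP-negative mean nearest to U3 at 0.0988.

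Cell type markers and array controls were read in the same 6 arrays. HEK293 markers, summed over 14 genes, lay between 13.24 and 13.37 log2 units in the 6 arrays, with 9 to 12 of the 14 above the array median. Haematopoietic markers (11 genes) lay between 8.47 and 8.68, with 4 or 5 above it. The sets overlapped on both sums. The summed level of stromal and endothelial markers (12 genes) was 9.42, 9.29 and 9.35 in T3, U1 and U2, 9.19 in U3, and 9.07 and 9.06 in T1 and T2, with 5 to 7 of the genes above the array median. On this sum the high arrays lay above the others, and its part in the results was not tested. Singly, 1 of the 12 had high arrays above (12.3% of genes) and 2 below (17.1%). The 3′ minus 5′ signal of GAPDH, a sign of RNA integrity, was 0.12 to 0.42 and that of ACTB 0.93 to 1.74, each with overlapping sets. T2 stood apart on spiked hybridization controls, with 9.52 on BioB against 7.51 to 8.10 in the other arrays. Without T2, 146 probe sets were apart above and 22 below, against 139 and 15 with it. Pearson correlations between arrays over all probe sets were 0.987 to 0.996, with at most 138 equal values, so no pair of arrays was identical.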

How the data were processed

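Biotin-labelled cRNA was hybridized to Affymetrix arrays of 54675 probe sets. The values per array are log2 expression made with RMA, per the submitters' processing notes, with R 2.11.1 at 2, 8 and 16 h and with R 2.9.0 and limma at 24 h. The authors also deposited, for each time, mean log2 expression of both groups, a log2 fold change and a posterior probability, a score from 0 to 1. The deposited values were used as given. Control probe sets (62) were left out, which leaves 54613.

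Symbols came from the deposited tables and were updated through RefSeq: 41653 probe sets had 1 symbol and 13022 none. For gene lists the brightest probe set of each gene was used. Labelled groups were compared with limma 3.58.1 in R 4.3.3 (two-sided, Benjamini-Hochberg), over the 17 arrays of 2, 8 and 16 h in 1 fit and over the 6 arrays of 24 h in another, and the code was tested on simulated data. The sets made by the RAP1A grouping probe set were described by gaps, in Python 3.11.15 with pandas 2.3.3. Arrays give no counts, and their number limits the precision. Same-numbered arrays of 8 h deviated together (correlations 0.24 to 0.32); those of 16 h (0.091 to 0.44) and 24 h (-0.36 to -0.058) did not meet the limit of 0.1 in every pair. Named genes are the 15 with the largest gap on each side, the 10 largest changes of the deposited table in each direction, the 5 smallest labelled p at 24 h, all RAP1A probe sets, the tissue-restricted list and members of lists that were apart. The members, rules and lists were chosen with earlier results of these data known. One result on a single gene is not reported here.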

Additional observations from a re-analysis of the deposited data

Results flagged for a closer look

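In a fit of all 23 arrays (limma), the labelled log2 fold change of TPH1, the enzyme of serotonin synthesis, differed between 24 h and 8 h by -3.12 log2 units, and that of LOC387723 by -2.41. Both were singled out because the difference between the 2 times itself passed, as it did for 18 of 54613 probe sets. Against 16 h 0 probe sets passed. These differences rest on the 24 h labels, which do not match the deposited means, so no change of the GFP effect with time is read from them. TPH1 at 24 h read 2.79, 2.60 and 4.28 in T1 to T3, and 4.45, 4.69 and 2.84 in U1 to U3.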

How the results depend on the processing

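No called change of a single gene reversed direction under any alternative. The balance of calls at 8 h did reverse with quantile normalization, from more lower to more higher. The 2 h alternatives, and those of the counts that join 24 h sets to earlier calls, were added after seeing the data. At 2 h 300 probe sets were called (117 higher, 183 lower), 107 with all 23 arrays, 0 with that time alone and 27 to 284 with 1 replicate left out. At 8 h 3772 were called (1504 higher, 2268 lower), 1170 with all 23 arrays, 1843 with that time alone and 2027 to 3309 with 1 replicate left out. At 16 h 2420 were called (1348 higher, 1072 lower), 32 with all 23 arrays, 675 with that time alone and 1178 to 2401 with 1 replicate left out. The replicate block gave 5131 calls (8 h), 3685 (16 h) and 0 (24 h), and same-numbered arrays correlated best with each other at 8 h. Quantile normalization moved the split to 1938 higher and 1901 lower at 8 h and 1677 and 804 at 16 h, and median centring to 1816 and 614 at 16 h. At 24 h 0 were called under all 11 alternatives.

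With all 23 arrays, 28 of the 139 were called higher at 8 h and 2 at 16 h, and 0 of the 15 lower at either time. With 1 replicate left out these counts were 95 to 105, 114 to 132, 5 to 11 and 6 to 12. Counts apart at 24 h were 682 and 267 at a gap of 0.5, 18 and 0 at a gap of 2, 50 and 7 with 1 probe set a gene, 217 and 39 with the arrays under 6 left out, and 146 to 245 and 17 to 41 with 1 array left out. The highest came without untransfected replicate 3. Distances of the deposited GFP-positive mean from T3, U1 and U2 were 0.154, and 0.0387 with quantile normalization. Those of the GFP-negative mean were 0.170 from U3 (0.186 as a mean difference, 0.0988 with quantile normalization) and 0.174 from T1 and T2 (0.201 and 0.115). Among single genes, 176 values lost their call, 47 gained one, 4 gaps crossed 1 and 3904 kept their side. Except where fewer arrays or a wider fit set them, the cause was not tested.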
